A study of Homo sapiens with 6 samples.

Results

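The dual-specificity phosphatases and Sprouty proteins that restrain MAP kinase signalling were examined in A549, an established human cell line from a lung adenocarcinoma, after a short exposure to cisplatin. They comprised 10 genes, DUSP1, DUSP2, DUSP3, DUSP4, DUSP5, DUSP6, DUSP8, DUSP10, SPRY2 and SPRY4, chosen for this role and found by their symbol in the probe table of the array platform. Of these 10 genes 9 were measured, each by 1 of the 8746 non-control probe sets, and SPRY4 had no probe set. On 3 arrays, cisplatin 1 to 3, the cells had been exposed for 1 hour to 50 µM cisplatin, which forms platinum crosslinks in DNA. On the other 3 arrays, control 1 to 3, medium without the drug took its place, and both groups then spent 10 hours in drug-free medium. The series description speaks of independent experiments but does not tie the replicate numbers to them, and all arrays come from 1 cell line. The question put to these genes is whether the transcripts of this feedback layer differ after cisplatin.

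MAP kinases are switched on by phosphorylation of a threonine and a tyrosine in their activation loop, and dual-specificity phosphatases switch them off by removing both phosphates. Several of these phosphatase genes are themselves induced by the kinases that their products inactivate, which closes a negative feedback loop. Sprouty proteins act further upstream, between receptor tyrosine kinases and Ras-driven ERK activation, and are also induced by that pathway. Stress kinases of the JNK and p38 branches respond to DNA-damaging drugs, and DUSP1 is known as a phosphatase that limits them.

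The 250 bases upstream of the annotated start were read from the RefSeq promoter table of GRCh38.p14, which held 11 promoters of 8 of the 10 genes; DUSP4 and DUSP5 had no entry. The cAMP response element, TGACGTCA on either strand, was found upstream of DUSP1 and DUSP8, in 2 of these 11 promoters and in 1.65% of 35116 promoters of the same length. The AP-1 site TGACTCA, which is not contained in that element, was found in 0 of the 11 and in 4.2% of all. The 2 promoters with the element are shown because DUSP1 is a textbook immediate early gene and DUSP8 is the other member that carries it. Capitals mark the element, which begins 125 bases before the start of DUSP1, on the minus strand at chr5:172771196-172771445, and 118 and 74 bases before that of DUSP8, on the minus strand at chr11:1572272-1572521. A match is a description of these letters and was not tested as a binding site.
DUSP1: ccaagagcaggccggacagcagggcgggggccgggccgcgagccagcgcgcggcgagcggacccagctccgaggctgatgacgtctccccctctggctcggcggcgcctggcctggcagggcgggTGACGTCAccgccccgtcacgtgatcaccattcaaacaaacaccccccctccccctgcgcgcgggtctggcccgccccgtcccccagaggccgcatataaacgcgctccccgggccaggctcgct
DUSP8: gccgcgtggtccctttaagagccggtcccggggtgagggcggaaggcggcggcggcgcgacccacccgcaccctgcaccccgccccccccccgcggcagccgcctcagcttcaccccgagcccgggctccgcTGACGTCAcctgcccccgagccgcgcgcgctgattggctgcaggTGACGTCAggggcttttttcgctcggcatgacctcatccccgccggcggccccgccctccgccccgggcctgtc

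Values are probe set intensities as deposited, on a linear scale in arbitrary units, and folds are 2 to the power of the difference in mean log2(intensity + 11.8). Median intensities were between 57.2 and 67.2 per array, the highest being that of cisplatin 2. The first principal component, with 39.9% of the variance, set control 1 and cisplatin 2 apart. The ratio of 3′ to 5′ signal of ACTB, a measure of RNA integrity, ran from 2.20 to 2.98 in controls and from 2.67 to 3.67 after cisplatin. CDKN1A, the cell cycle inhibitor gene used to check the response to the drug, rose from 257 ± 21.4 to 1422 ± 48.5 (mean ± SD, n = 3 each, adjusted p = 4.74e-06). GAPDH had a log2 fold of -0.04. Of 11 epithelial and A549 markers 10 were measured, with group means up to 5926; those of CDH1 and EPCAM, between 32.7 and 37.3, lay within the range of markers that such cells lack. Of 13 markers of the latter kind, leukocyte, endothelial and fibroblast genes, 10 were measured, with group means of -0.596 to 102 and summed intensities of 350.0 to 376 in controls and 343 to 417 after cisplatin.

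None of the 8 tested feedback genes passed the threshold after cisplatin. Of the 9 probe sets 8 were bright enough on average to be tested, and in limma with Benjamini-Hochberg adjustment 0 of these 8 had an adjusted p under 0.05, against 0.290% of all 6559 tested probe sets. At an unadjusted p under 0.05 there was 1, DUSP5, against 5.03% of all, or 3.40% counting higher values alone. That count depended on the settings. It was 2 with arrays centred on the median, where SPRY2 joined, and 4 without cisplatin 2. The share of all probe sets under those settings is not given here. DUSP5 was also the 1 gene whose groups did not overlap, against 11.0% of all tested probe sets in either direction and 7.42% with cisplatin higher. The log2 fold was above 0 for 7 of the 8, against 60.5% of all, with SPRY2 the exception. With arrays centred on their median, which lowered all folds by a common amount, it was above 0 for 6. The median log2 fold was 0.15, beside 0.04 over the 5816 tested genes. Without cisplatin 2 the members' median was 0.24, beside 0.031 over all tested probe sets. Without cisplatin 1 it was 0.0872, beside 0.0392, and with arrays centred on their median 0.0737, beside -0.032. In total RNA of whole cultures a difference in transcript per cell and a difference in the share of cells that carry it cannot be told apart.

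DUSP5 encodes a nuclear phosphatase selective for ERK. Its intensity (probe set 209457_at) read 142, 124 and 104 across control 1 to 3, against 196, 174 and 161 across cisplatin 1 to 3. All 3 cisplatin values lay above all 3 control values. The log2 fold was 0.49 (95% interval 0.15 to 0.82, SE 0.15), a 1.40-fold difference, with an adjusted p of 0.587 in limma. RefSeq lists 2 pseudogenes of DUSP5, and whether the probes also match them was not tested.

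DUSP1 encodes a nuclear phosphatase of p38, JNK and ERK. Its probe set 201041_s_at read 1268, 1191 and 1159.6 in controls, against 1435, 1189 and 1341 after cisplatin. Cisplatin 1 and 3 were above every control and cisplatin 2 was among the controls. The difference of 0.13 on the log2 scale (SE 0.09, adjusted p = 0.999 in limma) had a 95% interval in folds of 0.947 to 1.26. DUSP4, whose product is a close nuclear relative of DUSP1, had 289, 303 and 309 in controls and 386, 256 and 373 after cisplatin (204015_s_at). Here cisplatin 2 was below every control while cisplatin 1 and 3 were above them all. The log2 fold of DUSP4 was 0.14 (SE 0.16, 95% interval -0.21 to 0.50).

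DUSP2, the remaining nuclear phosphatase of the group, is best known from activated leukocytes. Its values on probe set 204794_at, 10.5, -0.551 and 9.56 in controls and 12, 2.89 and 2.71 after cisplatin, were below the filter, so DUSP2 was not tested. The groups overlapped, and all 6 values lay near or below the offset of 11.8.

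DUSP6 encodes the cytoplasmic phosphatase of ERK, a frequently used readout of ERK activity. The DUSP6 probe set 208892_s_at gave 30.3, 35.5 and 31.7 in controls and 49.5, 28.1 and 45.3 after cisplatin. The pattern was that of DUSP4, with cisplatin 2 below all controls and the other pair above them. The log2 fold was 0.23 (SE 0.20, 95% interval -0.22 to 0.68, adjusted p = 0.999 in limma).

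DUSP8 and DUSP10 encode phosphatases that prefer the stress kinases JNK and p38. DUSP8 (206374_at) read 27.0, 37.7 and 31.9 in controls and 40.0, 35.4 and 39.6 after cisplatin, with cisplatin 2 inside the control range. Its log2 fold was 0.19 (SE 0.17, 95% interval -0.19 to 0.58), and RefSeq lists 3 pseudogenes of DUSP8 whose match to the probes was not tested. DUSP10 (221563_at) read 20.7, 30.9 and 30.0 in controls and 29.5, 29.7 and 26.6 after cisplatin. All 3 cisplatin values of DUSP10 lay within the control range, and its log2 fold of 0.06 (SE 0.19) turned below 0 with arrays centred on the median, with quantile normalization and without control 1.

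DUSP3 encodes a small atypical phosphatase that lacks the kinase-binding domain of the others and is not regarded as an immediate early gene. The DUSP3 values on 201536_at were 547, 530.1 and 565 in controls and 611, 531 and 691 after cisplatin. Cisplatin 1 and 3 again exceeded every control and cisplatin 2 did not. The difference was 0.15 on the log2 scale (SE 0.11, 95% interval -0.11 to 0.41).

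SPRY2, the measured Sprouty gene, encodes an inhibitor of signalling from growth factor receptors to Ras and ERK, and was the 1 tested member with a negative fold. Its probe set 204011_at read 44.6, 43.0 and 40.4 on the control arrays and 41.3, 15.8 and 27.1 on the cisplatin arrays. Cisplatin 2 and 3 were below every control, and cisplatin 1 lay among them. The log2 fold was -0.50 (SE 0.24, 95% interval -1.03 to 0.03, adjusted p = 0.978 in limma). It was -0.26 without cisplatin 2 and -0.73 without cisplatin 1, where SPRY2 had its lowest unadjusted p of all fits that left out 1 array (0.00917, adjusted 0.847 in limma). Cisplatin 1 was the highest cisplatin array of SPRY2 and cisplatin 2 the lowest, so both moves of the fold arose by construction. The group means of DUSP6, DUSP8, DUSP10 and SPRY2, 27.2 to 42.6, lay in the range of the leukocyte, endothelial and fibroblast markers. The deposited table gives no detection calls, so whether these transcripts were expressed at all cannot be read from such intensities.

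**Figure D1:**
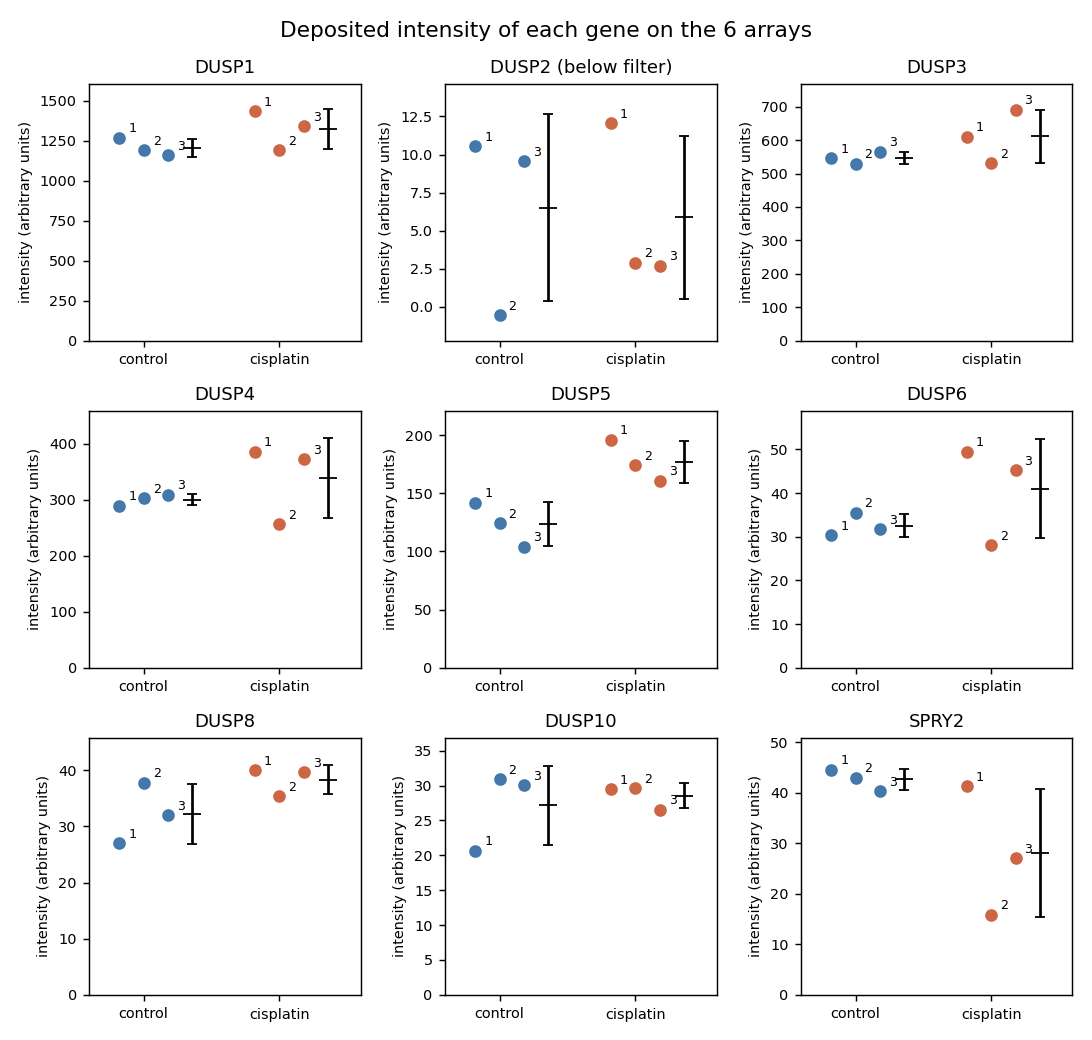
Deposited intensity (arbitrary units, linear axes from 0 except for DUSP2) of the 9 measured genes on each array; points are arrays labelled with their replicate number, black bars the mean ± SD of 3. DUSP5 is the 1 tested gene whose groups do not overlap, with controls of 104 to 142 and cisplatin arrays of 161 to 196. For every other tested gene cisplatin 2 falls among or below the controls. For DUSP1, DUSP3, DUSP4, DUSP6 and DUSP8 cisplatin 1 and 3 lie above all controls.

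The spread within the cisplatin group was shared by several of these genes. For 5 of the 8 tested members, DUSP1, DUSP3, DUSP4, DUSP6 and DUSP8, cisplatin 1 and 3 were above all controls and cisplatin 2 was not, an arrangement found in 7.70% of all tested probe sets and looked for after the values were seen. Counted by array, cisplatin 1 exceeded the highest control for 6 of the 8 (30.2% of all tested probe sets), cisplatin 3 for 6 (27.0%) and cisplatin 2 for 1 (36.5%). Cisplatin 2 was the lowest of the 3 cisplatin arrays for 6 of the 8, against 37.9% of all. With quantile normalization the same 5 genes showed the arrangement, beside 6.75% of all, and with arrays centred on the 75th percentile 4 of them did, beside 4.91%. With arrays centred on the median it was again these 5, beside 9.18%. Cisplatin 2 had the highest array median and, together with control 1, an outlying position on the first principal component. Its ACTB ratio of 2.67 lay within the control range of 2.20 to 2.98, and cisplatin 1 had the highest ratio, 3.67. The part of these in the arrangement was not tested. CDKN1A read 1370 on cisplatin 2, against 1467 and 1429 on cisplatin 1 and 3.

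**Figure D2:**
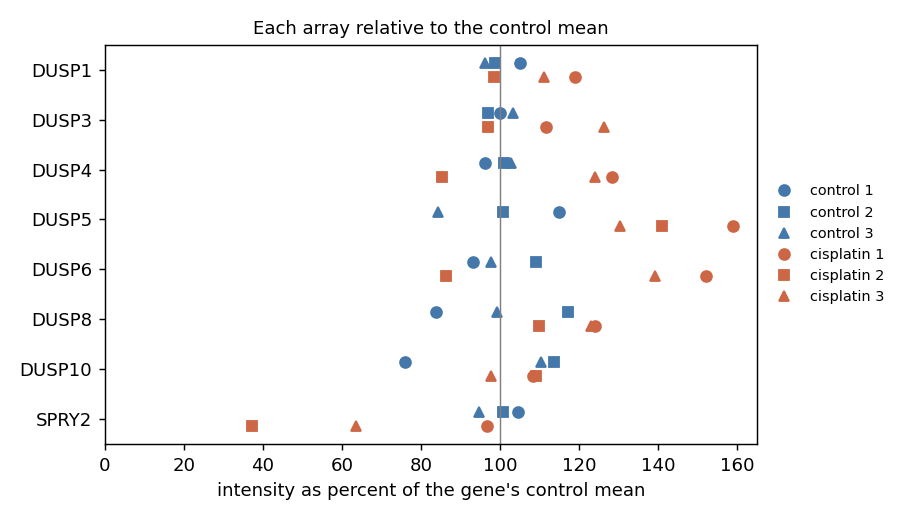
Intensity of the 8 tested genes on each array as a percentage of that gene's control mean (grey line); colours separate control from cisplatin and symbols the replicate number. The cisplatin 2 squares of DUSP1, DUSP3, DUSP4, DUSP6 and DUSP8 lie left of the other cisplatin arrays, and that of SPRY2 is the lowest point of the plot.

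Several folds depended on which cisplatin array was left out. Of the 8 genes 0 passed in limma without cisplatin 1 (0.0915% of all tested probe sets), without cisplatin 2 (0.168%), without cisplatin 3 (0.107%), or without control 1 and cisplatin 2 together (0.305%). The log2 fold of DUSP4 was 0.32 without cisplatin 2, 0.04 without cisplatin 1 and 0.064 without cisplatin 3. DUSP6 had 0.42 without cisplatin 2, against 0.11 without cisplatin 1 and 0.16 without cisplatin 3. Removing cisplatin 2, which was the lowest cisplatin array of both genes, raised their folds by construction, and removing either of the others lowered them.

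For DUSP1 the fold was 0.20 without cisplatin 2 and 0.066 without cisplatin 1, and for DUSP3 it was 0.24 without cisplatin 2 and 0.057 without cisplatin 3. DUSP5 stayed between 0.38 and 0.58 whichever of the 6 arrays was left out. The fold of DUSP8 was lowest without control 1, at 0.11.

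**Figure D3:**
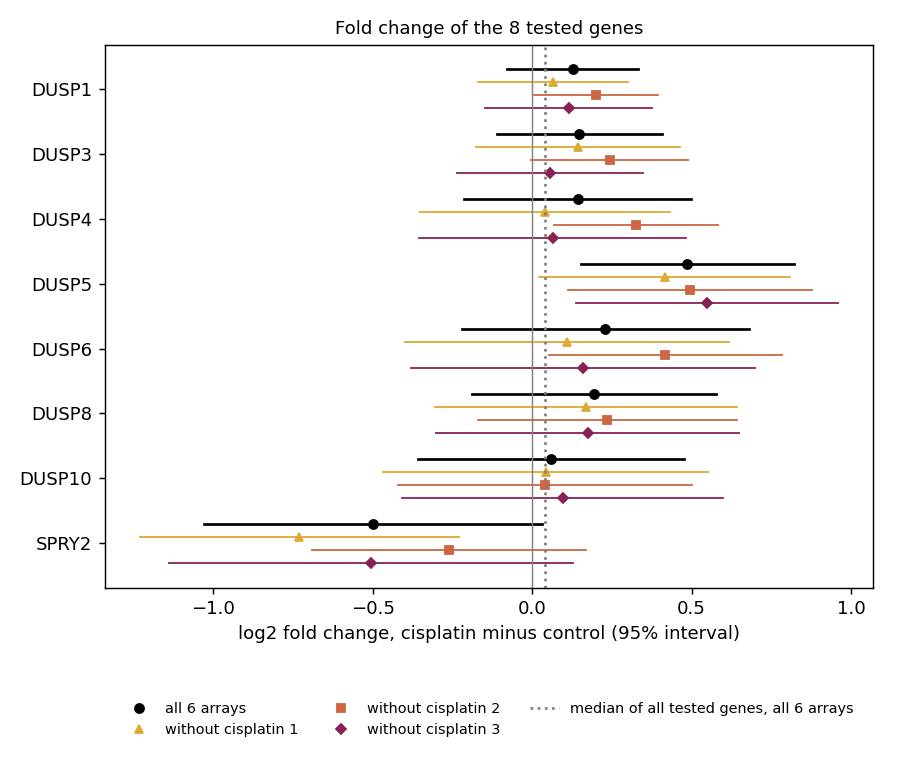
Log2 fold change, cisplatin minus control, of the 8 tested genes with 95% intervals, for all 6 arrays (black circles) and with cisplatin 1, 2 or 3 left out; the dotted line is the median of all tested genes, 0.04. With a cisplatin array left out DUSP5 runs from 0.42 to 0.55, DUSP4 from 0.04 to 0.32 and SPRY2 from -0.73 to -0.26.

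The genes around the feedback layer were read from 4 lists, in which 0 genes passed in limma; an unadjusted p under 0.05 was found for 5.21% of all tested genes. Of 11 tested other phosphatases and feedback inhibitors, 3 (27.3%) had such a p, 1 higher and 2 lower, and the median log2 fold was -0.05. DUSP14, an atypical relative of DUSP3, had the lowest p of this list. Its intensity was 345, 309.7 and 360 in controls and 522, 461 and 556 after cisplatin, with no overlap between the groups. The log2 fold of DUSP14 was 0.58 (SE 0.12, 95% interval 0.32 to 0.85), with an adjusted p of 0.123 in limma, and over 15 alternative settings that p lay between 0.0643 and 0.692. The log2 fold of TRIB3, a pseudokinase gene, was -0.28, and the related TRIB1, named after its value was seen, had -0.33.

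Along the cascade from receptors to ERK, 1 of 14 tested genes (7.14%) had an unadjusted p under 0.05, near the 5.21% of all tested genes. The median log2 fold was 0.01, and -0.0604 with arrays centred on their median and -0.0272 without cisplatin 1. The 1 gene was RPS6KA1, which encodes a ribosomal S6 kinase activated by ERK, at 77.4 ± 11.2 in controls and 107 ± 7.29 after cisplatin (mean ± SD, n = 3 each; adjusted p = 0.75 in limma). SHC1, an adaptor of receptor tyrosine kinases, had a log2 fold of 0.15, which was 0.24 without control 1 and 0.09 without cisplatin 3. Of 17 tested genes of the JNK, p38 and ERK5 cascades 0 had an unadjusted p under 0.05 in limma, against the same 5.21%, with a median log2 fold of 0.02. MAPK7, which encodes ERK5, had 0.30, and MAP2K6, a kinase that activates p38, had -0.19, which was -0.11 without control 2.

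The list of ERK targets also held transcription factors such as ELK3 and ELK4, so it is not a set of ERK-induced transcripts alone. Among its 19 tested genes 3 (15.8%) had an unadjusted p under 0.05 in limma, 2 lower and 1 higher. Of all tested genes 5.21% had such a p, 94 of them lower and 209 higher. The median log2 fold was -0.07, and 0.00364 without cisplatin 2 and -0.144 with arrays centred on their median. MYC, a growth-promoting transcription factor, had 681, 692 and 729 in controls and 502, 378 and 513 after cisplatin. The groups of MYC did not overlap, and its adjusted p in limma was 0.193. The immediate early gene IER2 stood at -0.28 on the log2 scale, and the receptor gene EPHA2, named after its value was seen, had 0.31.

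**Figure D4:**
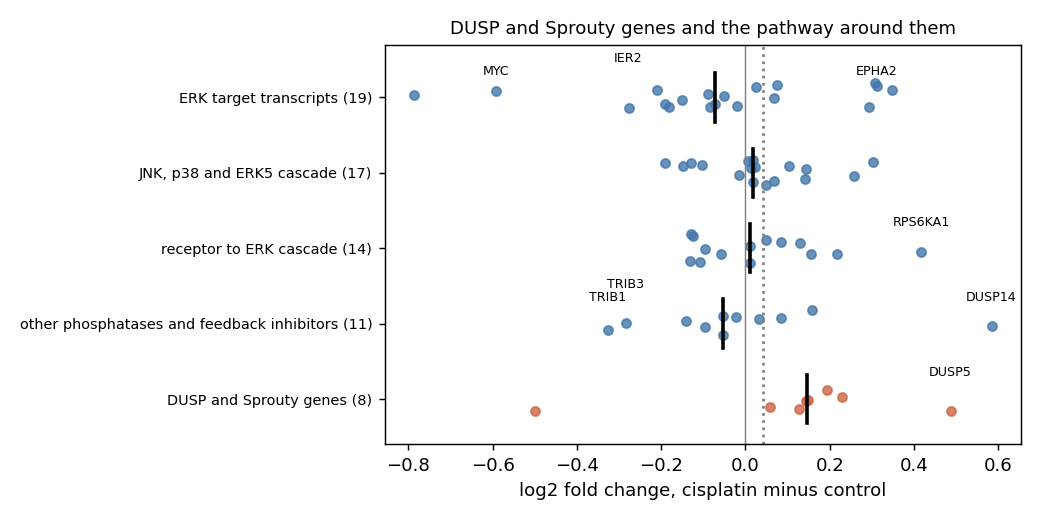
Log2 fold change, cisplatin minus control, of the 8 tested genes (orange) and of the tested genes in 4 pathway lists (blue, number of genes in brackets); vertical scatter has no meaning. Black bars are list medians, from -0.07 to 0.15, the dotted line is the median of all tested genes, and genes with an unadjusted p under 0.05 are named above their points.

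The patterns closest to those of the 2 members with the lowest unadjusted p were sought among 5913 other tested probe sets with a single gene name. The measure was the root mean square difference of centred log2 values over the 6 arrays. Closest to DUSP5 were PTPRU, a receptor-type tyrosine phosphatase gene, at 0.0619, the acetylcholine receptor subunit gene CHRND at 0.0946 and the BCL2 family gene BCL2L10 at 0.0962, beside a median of 0.323 over all compared. Closest to SPRY2 were PAQR4 at 0.0865, GLI1, a transcription factor of Hedgehog signalling, at 0.108 and the nuclear pore gene NUP62 at 0.149, beside a median of 0.425. These 6 genes were picked for likeness on these same arrays, so their folds, p-values and dependence on single arrays largely follow from that choice. Their log2 folds were 0.47, 0.37 and 0.32, and -0.52, -0.43 and -0.29, in the order given. Without cisplatin 2 those of the SPRY2-like genes PAQR4, GLI1 and NUP62 became -0.33, -0.20 and -0.052, and NUP62 had -0.59 without cisplatin 1. Of the 6 genes 0 passed in limma, and PTPRU and PAQR4 had an unadjusted p under 0.05.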

How the data were processed

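Messenger RNA of 3 control and 3 cisplatin-treated A549 cultures was measured on short-oligonucleotide arrays. The authors deposited linear probe set intensities, from -512.3 to 9153, of which 1.37% were at or below 0; for how they summarised and scaled them, nothing is given in the sources used here. Such values were raised to 0, an offset of 11.8 (the 10th percentile of positive values) was added and log2 was taken. Arrays were not rescaled, since their 75th percentiles spanned 0.154 on that scale, within the limit of 0.3. After control probe sets were removed, the dimmest 25% by mean log2 were set aside and 6559 of 8746 probe sets were tested in limma 3.58.1 under R 4.3.3 (lmFit, eBayes with an intensity trend, two-sided). P-values were adjusted over all of them by Benjamini-Hochberg, at 0.05. Residual degrees of freedom were 4 and prior ones 5.54. The offset lowers the folds of dim probe sets. Symbols came from the platform's probe table; 7838 of its 7840 single-symbol entries matched RefSeq. In the lists a gene stands for its probe set with the highest mean. The series description names independent experiments, but the labels do not describe the cultures. The p-values therefore measure the spread between these arrays, whose number limits the precision. Tested on simulated data for this comparison (6559 probe sets, 6 arrays), the fit recovered 39.6% of 1.5-fold and 89.4% of 2-fold changes, with 5.15% false calls. Each simulated run held 200 changed probe sets and normal noise independent between probe sets. Its variances were those of the fit, already drawn towards the prior, so they spread less than the raw ones. The rates average over bright and dim probe sets, and the SE was 0.0918 for DUSP1 and 0.237 for SPRY2. Recovery would be lower with fewer true changes, and in the real data 19 probe sets were called.

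The genes and the 4 lists were chosen with earlier results of these data known. Besides the members, the rule named CDKN1A, GAPDH, the 2 genes of each list with the lowest unadjusted p (or, where any passed, up to 2 in each direction), and the 3 probe sets closest to each of 2 members. TRIB1 and EPHA2 were added after their values were seen. Alternatives covered scaling, offset, filter, variance prior, replicate block, arrays left out and the probe sets counted. Figures used matplotlib 3.10.9 and Python 3.11.15.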

Additional observations from a re-analysis of the deposited data

How the results depend on the processing

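Under the alternatives run, 0 tested members passed in limma. Of 116 alternative log2 folds of the 8 tested members 112 kept their sign, and adjusted p values ranged from 0.259 to 1. The 4 others were all of DUSP10: -0.0129 with arrays centred on the median, -0.00878 with quantile normalization, -0.0673 without control 1 and -0.0868 without control 1 and cisplatin 2 together. Over the fits that left out a single array DUSP10 ran from -0.0673 to 0.130. GAPDH ranged from -0.0856 to 0.0091 over those fits, the last without control 2. The arrangement in which cisplatin 2 stood apart, with its scaling alternatives chosen after the data were seen, was found in 4 to 5 members.

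Over the whole array 19 probe sets were called, and 11 after median centring, 8 with the trend left out and 3 by a plain test of each probe set; all of these were among the 19. Leaving out each array gave 6 to 18. Under the replicate block 5 were called, again among the 19, and 0 members. The labels do not pair equal numbers: deviations of same-numbered arrays correlated at -0.56, -0.31 and -0.12, and for 0 of 6 arrays was the closest deviation in the other group that of the same number. The median of the list of other phosphatases and inhibitors, -0.0539, became -0.126 with arrays centred on the median, -0.0979 with arrays centred on the 75th percentile and 0.0333 with no filter, and -0.0775 to 0.015 over the fits without 1 array. That of the JNK, p38 and ERK5 list became -0.0534 after median centring. Over all alternatives the receptor-to-ERK median ran from -0.0604 to 0.0254 and the ERK target median from -0.144 to 0.00364. Each centring lowered all log2 folds by a common amount. The median over all tested probe sets went from 0.0402 to -0.032 when centred on the median and to -0.00391 on the 75th percentile. The causes of the other moves were not tested. No probe set listed a member among several symbols, so that alternative gave no further value. Signal over background limits DUSP2, DUSP6, DUSP8, DUSP10 and SPRY2.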
